A study of Mus musculus with 2 samples.

Results

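Mir378a, its paralogue Mir378b and Gm25301, an annotated microRNA gene on the strand opposite Mir378a, were examined in microRNA sequencing of the mouse adrenal gland. These 3 of 2202 microRNA genes were taken from GENCODE M21 by their Ensembl identifiers (ENSMUSG00000105200.1, ENSMUSG00000092985.1 and ENSMUSG00000093026.1). No cut on their levels was used, but earlier results of these data were known when they were chosen. The samples were adrenal glands of 2 male mice of strain B6CASTF1/J at 36 days of age, with 1 library each. This strain is a first-generation cross of C57BL/6J and CAST/EiJ mice, and the labels name no treatment. The labels number the animals separately but give a single donor record for both. P-values between the libraries therefore concern these 2 samples only, and those of the binomial test below allow for counting noise alone. Replicate 1 held 4494857 sense counts in microRNA genes and replicate 2 held 2078824. CPM below is the sense count of a gene per 1000000 of these. The labels define 1 group, so the comparisons are between genes, between strands and between the 2 libraries.

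A microRNA is cut from a hairpin precursor and guides Argonaute proteins to messenger RNAs that pair with its seed, bases 2 to 8 of the mature strand. Mir378a lies within Ppargc1b, which encodes PGC-1β, a transcriptional coactivator of mitochondrial and lipid metabolism genes, and can be made from the transcript of its host. It is known from brown fat, muscle and liver, where it has been tied to oxidative metabolism. Mir378b, Mir378c and Mir378d are related hairpins elsewhere in the genome. The adrenal cortex makes steroid hormones from cholesterol in mitochondria-rich cells.

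The mature sequences of the paralogues are shown because they set how far their reads can be told apart. Sequences of 3 of the 5 genes named so far were matched in RefSeq (GRCm38.p6), those of Mir378b, Mir378c and Mir378d. Mir378a was not among them, so how far its reads can be told from those of the paralogues was not examined. In the mature sequences, read 5′ to 3′, capitals mark the seed.
mmu-miR-378b: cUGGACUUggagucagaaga
mmu-miR-378c: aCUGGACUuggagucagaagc
mmu-miR-378d: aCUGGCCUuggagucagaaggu
The annotated mature strands differed at their ends and in the seed. No 2 of these 3 annotated seeds were the same, and miR-378b is annotated to start 1 base later than miR-378c. With positions counted from the 5′ end of miR-378c and the sequences aligned on their longest shared run, miR-378b differed by C21A, and miR-378d by A6C and C21G. miR-378b and miR-378c shared an unbroken run of 19 bases. miR-378d shared 14 bases with either. Reads that map to several places are listed apart in the deposited files and enter no gene, so reads that hold only a shared run can be missing from these 3 genes.

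The hairpins are shown because the annotated mature strand sits on different arms. Capitals mark the mature strand within Mir378b (chr11:88352773-88352864, plus strand), Mir378c (chr14:46954830-46954928, minus strand) and Mir378d (chr10:126710282-126710391, minus strand).
Mir378b: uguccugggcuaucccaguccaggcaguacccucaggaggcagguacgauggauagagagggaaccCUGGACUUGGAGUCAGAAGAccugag
Mir378c: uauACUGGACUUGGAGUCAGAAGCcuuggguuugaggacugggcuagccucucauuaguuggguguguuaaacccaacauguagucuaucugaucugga
Mir378d: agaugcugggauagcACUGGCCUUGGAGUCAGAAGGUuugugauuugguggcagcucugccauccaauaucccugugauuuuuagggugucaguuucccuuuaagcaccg
The mature strand of Mir378b lay on the 3′ arm, at bases 67 to 86 of 92. Those of Mir378c and Mir378d lay on the 5′ arm, at bases 4 to 24 of 99 and 16 to 37 of 110. The predicted folding energy per base was -0.338, -0.273 and -0.318 kcal/mol for Mir378b, Mir378c and Mir378d, against a median of -0.406 over the 1005 hairpins of the table. Of those hairpins 75.8%, 93.1% and 82.8% were predicted to be more stable per base than Mir378b, Mir378c and Mir378d. Over the whole hairpins, no 2 of the 3 genes shared a longer run than their mature strands did.

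The 4 family genes differed in where they lie. Mir378b and Mir378c lay in introns of genes on the other strand, Mir378b within Msi2, which encodes an RNA-binding protein of stem and progenitor cells, and Mir378c within Samd4, which encodes a translational repressor. Mir378d lay outside protein-coding genes, 158036 bases from Atp23. Mir378a was the only family gene inside a protein-coding gene on its own strand.

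In mm10, Mir378a lies on the minus strand of chromosome 18 from 61397835 to 61397900, a hairpin gene of 66 bases, and Ppargc1b spans 61298136 to 61400431 on the same strand. In each of the 3 annotated Ppargc1b transcripts that span it, Mir378a fell in intron 1, 2389 bases after the end of exon 1. The distance to the next exon was 15311, 74526 or 7748 bases, depending on the transcript. Gm25301 lies on the plus strand from 61397813 to 61397925. Its 113 bases cover Mir378a whole, with 22 and 25 bases to spare at the sides.

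**Figure D1:**
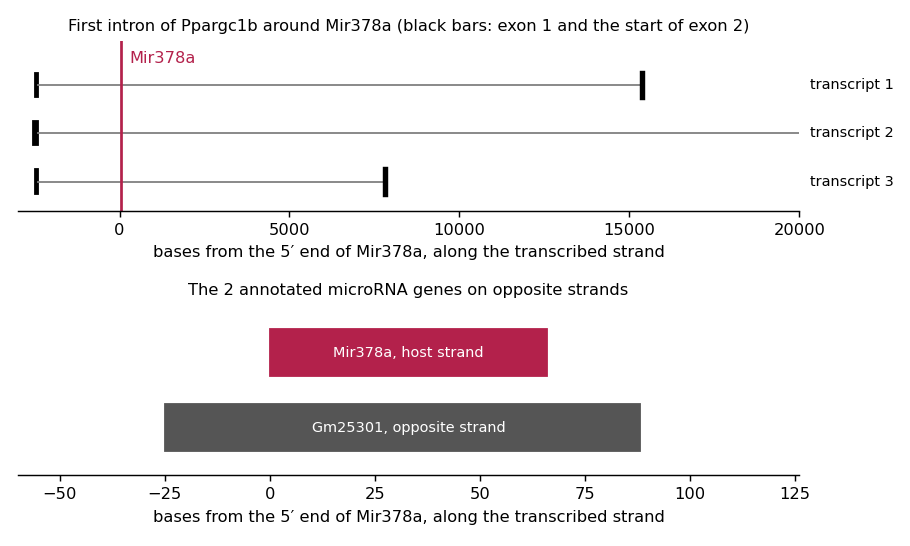
Map of Mir378a in its host, with distance in bases from the 5′ end of Mir378a along the transcribed strand. The upper panel shows the 3 annotated Ppargc1b transcripts, with black bars at exon 1 and at the start of exon 2 (beyond the axis for transcript 2), and Mir378a 2389 bases after exon 1 in each. In the lower panel, Gm25301 covers all 66 bases of Mir378a on the opposite strand.

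Mir378a was among the most abundant microRNAs of the gland, and all of its reads lay on the strand of its host. It had 242437 sense counts (53937 CPM) in replicate 1 and 196184 (94373 CPM) in replicate 2, a mean of 74155 ± 28593 CPM (SD, n = 2). It ranked the fourth gene in replicate 1 and the second in replicate 2. In these whole glands, more cells that make Mir378a and more Mir378a per cell cannot be told apart. By mean CPM, Mirlet7b stood above it and Mirlet7g, Mir126a and Mir375 came next below. The means of Mirlet7g and Mir126a were lower by 2089 and 4347 CPM, less than the SD of Mir378a. Both genes stood above Mir378a in replicate 1 and below it in replicate 2, so that order is not resolved. With 2 libraries no exact test of an order between genes can reach 0.05. Even an unpaired exact test of 2 values against 2, which ignores that the genes share the libraries, gives p = 0.333 at best.

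Ratios between genes within a library do not depend on scaling, and they moved between the libraries. Mir378a had 0.672 times the counts of Mirlet7g, a let-7 gene, in replicate 1 and 1.48 times in replicate 2. Against Mir126a, a microRNA of endothelial cells, the ratio was 0.721 and 1.46. Against Mir375, known from endocrine cells, it was 1.22 and 1.82, and against Mirlet7b 0.641 and 0.519. Relative to Mirlet7g, Mir126a and Mir375, Mir378a was higher in replicate 2, and relative to Mirlet7b it was higher in replicate 1.

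The paralogues were far lower. Mir378c had 254 and 176 counts in replicates 1 and 2 (56.5 and 84.7 CPM), a mean of 70.6 ± 19.9 CPM (SD, n = 2). Mir378d had 149 and 93 counts (33.1 and 44.7 CPM), a mean of 38.9 ± 8.19 CPM. Mir378b had 21 and 13 counts, or 4.67 CPM (exact Poisson 95% interval 2.89 to 7.14) and 6.25 CPM (3.33 to 10.7), a mean of 5.46 ± 1.12 CPM. These intervals cover counting error only. Within each library the counting intervals of Mir378c, Mir378d and Mir378b did not overlap, so Mir378c stood above Mir378d and Mir378d above Mir378b in both. The mean of Mir378a was 1051 times that of Mir378c, 1904 times that of Mir378d and 13575 times that of Mir378b. These levels are per hairpin gene and not per length, since a small RNA read covers about the mature strand whatever the hairpin length.

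Mir378a thus held nearly all counts of the miR-378 family. Its share of family counts was 99.825% in replicate 1 (99.808 to 99.842, exact Clopper-Pearson 95% interval). In replicate 2 the share was 99.856% (99.839 to 99.873). The intervals overlap. The 3 paralogues together took 0.00943% and 0.0136% of all gene counts. How many family reads were set aside because they map to several places was not measured here. Whether counts of the paralogues include reads of the far more abundant Mir378a was not tested, nor the reverse.

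**Figure D2:**
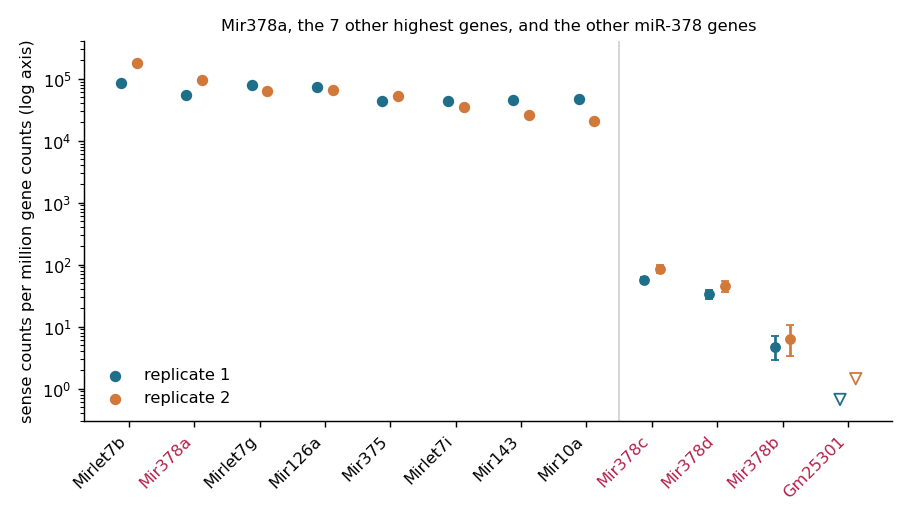
Sense counts per 1000000 gene counts (log axis) in each library for the 8 genes with the highest means and for the other miR-378 genes and Gm25301. Points are single libraries, bars on the miR-378 paralogues are Poisson 95% intervals, and open triangles mark the limit of 3 counts for a gene at 0. Mir378a sits with the highest genes at 53937 and 94373 CPM, while Mir378c, Mir378d and Mir378b lie below 100 CPM.

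No read was counted on the Gm25301 strand. Gm25301 had 0 sense counts in both libraries, which allows up to 3 counts, or 0.667 CPM in replicate 1 and 1.44 CPM in replicate 2. Mir378a was at least 80812-fold higher in replicate 1 and at least 65395-fold higher in replicate 2, taking 3 counts per library as the limit. Conversely, the antisense column held 0 counts for Mir378a, which allows up to 0.00124% and 0.00153% of its reads on the plus strand if the limit is set at 3 counts. The exact Clopper-Pearson 95% upper bounds were 0.00152% and 0.00188%. Having 0 antisense counts was not particular to Mir378a. Among 409 microRNA genes outside opposite-strand pairs with at least 10 counts over both libraries, 388 had 0 antisense counts as well. The antisense column of Gm25301 held exactly the 242437 and 196184 reads of Mir378a, since its bounds contain them.

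Because Gm25301 covers Mir378a, Mir378a disappears when strand is ignored. In the column that ignores strand, a read overlapping both genes is ambiguous, and Mir378a had 0 counts in both libraries. The strand-blind summary listed 795347 ambiguous reads in replicate 1 and 402881 in replicate 2. The number of Mir378a reads equals 30.5% and 48.7% of these.

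This loss was shared by every opposite-strand pair with at least 10 counts. Since the strand-blind column sets reads on both genes aside, that outcome was largely fixed by the overlap. The annotation held 32 pairs of microRNA genes that overlap on opposite strands, of which 27 had at least 10 sense counts. In 14 of these 27 the higher gene lay wholly inside its partner, as Mir378a does, and in the rest the overlap was partial. In all 27 the strand-blind count of the higher gene was under 1% of its sense count, and in 23 it was 0. Among 409 other microRNA genes with at least 10 counts, 0 fell under 1%, and the lowest value was 100%. By the sense counts of the higher gene over both libraries, Mir378a with Gm25301 came second at 438621, after Mir126a with Mir126b at 471029. Mirlet7e with Gm25927, Mir451a with Mir451b, and Mir30e with Mir30f followed, at 82998, 66431 and 53270.

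The lower gene of a pair had no counts in most pairs but not in all. Reads that map to several places enter no gene, and some pairs had few counts. A count of 0 therefore does not show that the lower gene is off. It had 0 counts in 18 of the 27 pairs, among them Gm25301, Gm25927, Mir451b and Mir30f, and at least 1 count in the other 9. Mir126b had 51 and 23 counts, 0.0157% of its pair. The highest share was that of Mir3074-1, opposite Mir24-1, with 65 and 15 counts or 22.3% of its pair, a pair singled out after its value was seen.

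**Figure D3:**
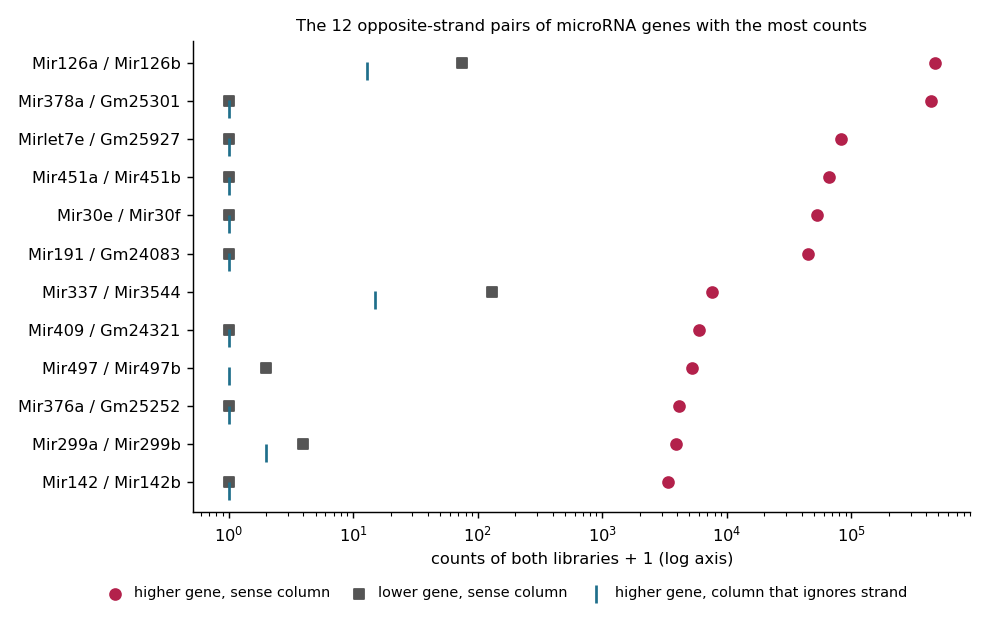
Counts of both libraries plus 1 (log axis) for the 12 opposite-strand pairs with the most counts, with the higher gene in red, the lower gene in grey squares and the strand-blind count of the higher gene as blue ticks. Mir378a has 438621 sense counts, while Gm25301 and the strand-blind count are both at 0.

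Mir378a took a larger share of gene counts in replicate 2, but not of all reads. In replicate 1 it made up 5.39% of gene counts, with 5.37 to 5.41 as the exact Clopper-Pearson 95% interval. In replicate 2 the value was 9.44% (9.40 to 9.48). Among reads mapped to a single place it took 4.51% and 7.14%, and among all mapped reads 2.68% and 3.95%. Of all reads it took 1.97% (1.96 to 1.98) and 1.90% (1.89 to 1.91), with replicate 1 the higher. The libraries differed in what became of the other reads, with 26.4% unmapped in replicate 1 and 51.9% in replicate 2. The part of the unmapped reads in the difference was not tested.

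**Figure D4:**
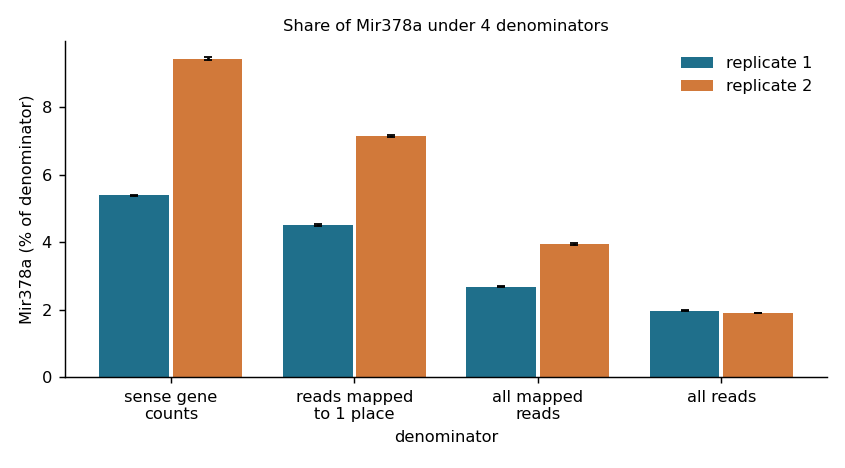
Share of Mir378a (%) in each library as bars under 4 denominators, with exact Clopper-Pearson 95% intervals of counting error as whiskers. Replicate 2 is higher for gene counts (9.44% against 5.39%), reads mapped to 1 place and all mapped reads, and slightly lower for all reads (1.90% against 1.97%).

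Between the libraries, Mir378a and Mir378c were higher in replicate 2 after TMM scaling, and Mir378b and Mir378d did not pass the test. The test was a two-sided exact binomial test of the 2 counts with Benjamini-Hochberg adjustment over all 333 genes that reached 10 counts in each library. It compares these libraries, not conditions, and allows for counting noise alone. It called 78.1% of the 333 genes, 39.3% with the higher level in replicate 2 and 38.7% with it in replicate 1. The log2 ratio of Mir378a was 0.62 (95% counting interval 0.61 to 0.63), with an adjusted p too small for the software to represent. That of Mir378c was 0.40 (0.11 to 0.68) with an adjusted p of 0.00724 by the exact test. Mir378b had 0.24 (-0.88 to 1.30) with an adjusted p of 0.743, and Mir378d 0.25 (-0.14 to 0.63) with an adjusted p of 0.230, also by the exact test. Gm25301, with 0 counts, was not tested.

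Against that background a call for Mir378a is no result about it. In size, 168 of the 333 genes (50.5%) had a larger absolute log2 ratio than Mir378a, whose ratio lay close to the median absolute ratio of 0.62. The edgeR exact test, with a dispersion estimated from the same 2 libraries, called 0.601% of the genes and gave Mir378a an adjusted p of 0.988. Its calls were 2 genes, and 17 genes had an unadjusted p under 0.05, with none of the 4 family genes in either count. Scaling to all reads moved every log2 ratio by -0.68 and turned that of Mir378a to -0.054 (-0.063 to -0.045), and library size alone moved every ratio by 0.19.

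With only 2 libraries, likeness to Mir378a is likeness in a single ratio. Among 86 other genes with a mean of at least 1000 CPM, Mir676 (0.59), Mir125a (0.58) and Mirlet7e (0.58) had the log2 ratios nearest to that of Mir378a. Signs of other tissues also differed between the libraries. The acinar pancreas genes Mir216a, Mir216b and Mir217 summed to 0 and 677 counts in replicates 1 and 2. The 5 epithelial miR-200 genes summed to 291 and 7434 counts (64.7 and 3576 CPM). The 3 erythroid genes summed to 71204 and 2269 counts (15841 and 1091 CPM). Of the erythroid genes, Mir451a (log2 ratio -4.18) and Mir144 (-3.42) were higher in replicate 1, and Mir486 (-0.33) was not past the binomial test. The part of these in the ratio of Mir378a was not tested. No microRNA on the lists defines the adrenal gland, so the labelled tissue was not checked against markers.

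Mir378a is high in striated muscle, and the muscle genes were near 0 here. Of 10 striated muscle microRNAs, 5 had 0 counts in both libraries (Mir1a-1, Mir1a-2, Mir133a-1, Mir133a-2 and Mir133b). The 10 together had 30 and 23 counts, led by Mir499 with 14 and 9 counts, then Mir206 with 5 and 11 and Mir1b with 9 and 2. Mir1a and Mir133a have identical copies at 2 loci each, so their reads can be among those that map to several places. Mir122, the liver microRNA, had 6217 and 5908 counts (log2 ratio 0.85, called higher in replicate 2).

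Most microRNAs of brown fat on the list stood higher in replicate 2, as Mir378a did. Of 15 listed genes 14 were tested. By the binomial test 11 stood higher in replicate 2 (39.3% of all genes did) and 2 in replicate 1, while 1 missed the threshold, with a median log2 ratio of 0.71 against 0.01 over all 333 genes. Mir378a is itself on this list. Without it, 10 of 13 tested genes stood higher in replicate 2 and 2 in replicate 1, with a median log2 ratio of 0.80. Mir378a held 92.5% of the counts of the list in replicate 1 and 87.1% in replicate 2. The other 14 genes took 0.438% of gene counts in replicate 1 and 1.40% in replicate 2. The next highest were Mir328 at 1782 and 3716 CPM (log2 ratio 0.87) and Mir30b at 290 and 3571 CPM (3.44). Mir193b, which supports brown fat differentiation in culture, stood at 256 and 3032 CPM (3.38), and Mir455, tied to brown fat commitment, at 1154 and 2284 CPM (0.80). The rest of those higher in replicate 2 were Mir129-1 (2.56), Mir129-2 (1.84), Mir365-2 (1.00), Mir30c-2 (0.54), Mir30c-1 (0.46) and Mir193a (0.23). Mir196a-2 (-0.56) and Mir32 (-0.53) were higher in replicate 1, and Mir196a-1 (-0.34) was not past the test. The split of 11 and 2 became 6 and 7 with scaling to all reads. No gene of the list was past the edgeR exact test, with 3 at an unadjusted p under 0.05 and the lowest adjusted p at 0.165. The list was written with earlier results of these data known.

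Genes known to restrain brown fat stood on both sides, as all genes did. Of 9 listed, 6 were tested, and the other 3 were the muscle genes Mir133a-1, Mir133a-2 and Mir133b at 0 counts. Mir27b (log2 ratio 0.36), Mir27a (0.46) and Mir34a (0.85) were higher in replicate 2, and Mir93 (-0.36), Mir106b (-0.77) and Mir155 (-0.56) higher in replicate 1. That is 3 in each direction, where 39.3% and 38.7% of all genes were called, with a median log2 ratio of -0.00. With scaling to all reads 1 stood higher in replicate 2 and 5 in replicate 1. The edgeR exact test called none of them (lowest adjusted p = 0.988), and 0 had an unadjusted p under 0.05.

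Mir378a and Mirlet7g were the leading microRNA genes in introns of protein-coding genes on their own strand, and their order is not resolved. Of the 333 tested genes, 112 had this layout, with a median of 154 CPM. Together they took 35.3% and 31.7% of gene counts in replicates 1 and 2, and Mir378a made up 15.3% and 29.7% of their counts. Mirlet7g, in Wdr82, had a mean of 72065 ± 11615 CPM (SD, n = 2) and was above Mir378a in replicate 1 and below it in replicate 2. Mir26b, in Ctdsp1, followed by mean at 28352 ± 21895 CPM.

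A list of 20 microRNAs, chosen as lying within host genes, split as all genes did. Of these, 16 were tested, with 8 called in each direction by the binomial test, beside 39.3% of all genes called toward replicate 2 and 38.7% toward replicate 1. Toward replicate 2, with Mir378a, stood Mir107 (log2 ratio 2.05) and Mir103-2 (1.60), in introns of pantothenate kinase genes of coenzyme A synthesis. The others on that side were Mir26a-1 (0.92), Mir455 (0.80), Mir26a-2 (0.71), Mir149 (0.69) and Mir140 (0.48). Mir26a-2 and Mir140 overlap an annotated exon of the host, while the rest of the list, called the intronic list below, lie in introns. Toward replicate 1 stood Mir26b (-1.95), Mir33 in the gene of the sterol regulator Srebf2 (-0.93), Mir151 (-0.83) and Mir335 (-0.81). Mir28a (-0.78), Mir139 in the phosphodiesterase gene Pde2a (-0.62), Mir152 (-0.40) and Mir338 (-0.16) were on that side too. With scaling to all reads 3 stood toward replicate 2 and 10 toward replicate 1. The edgeR exact test called none of the list, and 0 had an unadjusted p under 0.05.

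Few other microRNA genes lie near Mir378a or Mir378b. Within 1 Mb of Mir378a, 7 other microRNA genes are annotated, of which Gm25301, Mir7220 and Mir6982 had 0 counts. Mir6983 had 3 and 0 counts and Mir5107 10 and 6. The closest expressed genes were Mir145a, 250 kb away, and Mir143, 251 kb away, microRNAs of smooth muscle. Mir145a had 1564 CPM in replicate 1 and 3998 CPM in replicate 2 and had the same sign as Mir378a after TMM scaling (log2 ratio 1.17). Mir143 had 45047 and 26223 CPM and had the opposite sign to Mir378a after TMM scaling (log2 ratio -0.97). Within 1 Mb of Mir378b lay only Mir142b, with 0 counts, and Mir142 of blood cells, with 2471 and 905 counts, both 596 kb away.

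**Figure D5:**
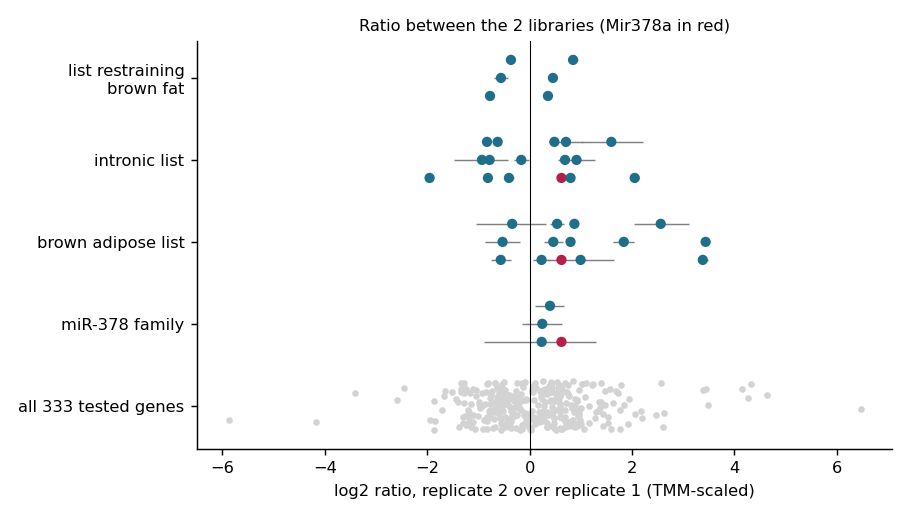
Log2 ratio of replicate 2 over replicate 1 after TMM scaling for the 333 tested genes (grey, spread vertically for sight) and for 4 lists, whose lines are 95% counting intervals. Mir378a (red) at 0.62 lies within the bulk of all genes, and the brown adipose list has a median of 0.71. The intronic list, in which Mir26a-2 and Mir140 overlap host exons, lies on both sides of 0.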

How the data were processed

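The deposited values are whole read counts for each microRNA gene of the annotation. One column disregards strand, and the others hold the sense and antisense reads, as the layout of the files shows. The text deposited with the files names assembly mm10 and annotation GENCODE M21. Which aligner and counter were used is not given in the sources used here. Every one of the 2202 gene identifiers was found in GENCODE M21. Reads that map to several places took 29.8% and 21.5% of all reads in replicates 1 and 2 and stand outside the gene counts, as do reads on no annotated gene (7.16% and 6.46%) and unmapped reads. CPM were computed from the sense column over all genes. Libraries were compared after TMM scaling with a two-sided exact binomial test, Benjamini-Hochberg adjusted at 0.05, and with the edgeR exact test at the common dispersion (biological coefficient of variation 52.7%). RNAfold gave folding energies. Tools were R 4.3.3, edgeR 4.0.16, DESeq2 1.42.0, Python 3.11.15, SciPy 1.17.1, pandas 2.3.3, NumPy 2.4.6, matplotlib 3.10.9 and ViennaRNA 2.7.2. The binomial test was tested on simulated data at the level of these libraries, on 336 genes. It called 86 of 86 genes with a 4-fold change, 87 of 108 with a 1.41-fold change, and 1 of 142 with no change. Those counts were drawn with counting noise alone, and the scaling was taken from the unchanged genes. The test assumes the same noise, so this run cannot show how often it calls unchanged genes in the real libraries. The members and lists were chosen with earlier results of these data known, and the pancreas, miR-200 and erythroid lists and the read denominators after seeing the data. Genes named are the members and family, the neighbours of Mir378a in mean CPM, in ratio and on the chromosome, the 5 largest opposite-strand pairs, the 3 highest genes of each list and those needed to account for a count, and Mir24-1 with Mir3074-1, chosen after their values were seen. Alternatives covered scaling, count minimum, strand column, denominators and leaving out each library. Intervals cover counting error only, since copies made by PCR cannot be recognised.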

Additional observations from a re-analysis of the deposited data

How the results depend on the processing

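Of 58 alternatives over the results, 45 left the result on its side of the threshold or within the spread of the libraries. Some of these outcomes were fixed in advance. With 2 libraries, the level or share of either alone lies within 1 SD of their mean by construction. A count of genes could also be taken as unchanged while its split by direction moved. The brown adipose list did so, from 11 and 2 to 6 and 7 with scaling to all reads. With the column that ignores strand, the level of Mir378a was 0 CPM, its rank 2202 and the level of Mir378b 6.72 CPM. For Mir378a and its rank the cause is the overlap with Gm25301, and for Mir378b the counts were the same and the gene total smaller. Per 1000000 of all reads and of mapped reads, chosen after seeing the data, Mir378a stood at 19365 and 33160. With 1 library alone its rank was 2 to 4 and its level 53937 to 94373 CPM. The log2 ratio of Mir378a ranged from 0.45 without a count minimum to 0.81 with library size alone, was -0.054 with scaling to all reads, and with the edgeR exact test, at 0.62, was not past the threshold (adjusted p = 0.988). The edgeR exact test called 2 genes in all, against 260 with the binomial test, and 0 of the brown adipose list, 0 of the intronic list, 0 of the list that restrains brown fat and 0 of the lipid list. The edgeR counts of the lists, and every alternative for the last 2 lists, were chosen after seeing the data. The split of all called genes, 131 higher in replicate 2 and 129 in replicate 1, became 56 and 213 with scaling to all reads and 149 and 112 with library size. No paired analysis was possible because there is a single group. Depth limits Mir378b, whose 21 and 13 counts leave a log2 ratio between -0.88 and 1.30.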

Other observations

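MicroRNAs studied in lipid and cholesterol metabolism, the raw material of adrenal steroids, stood on both sides between the libraries, as all genes did. Of 15 listed genes 13 were tested, with 6 higher in replicate 2 and 7 higher in replicate 1 by the binomial test, beside 39.3% and 38.7% of all genes, and a median log2 ratio of -0.21, against 0.01 over all 333 genes. The highest were Mir143 (45047 and 26223 CPM in replicates 1 and 2, log2 ratio -0.97), Mir335 in the imprinted gene Mest (6946 and 4490 CPM, log2 ratio -0.81) and Mir27b (4396 and 6407 CPM, 0.36). The others higher in replicate 2 were Mir107 (2.05), Mir103-2 (1.60), Mir122 (0.85), Mir34a (0.85) and Mir27a (0.46). The others higher in replicate 1 were Mir128-1 (-1.31), Mir33 (-0.93), Mir148a (-0.64), Mir370 (-0.60) and Mir130b (-0.21). With scaling to all reads 4 stood higher in replicate 2 and 9 in replicate 1. The edgeR exact test called none of the list (lowest adjusted p = 0.988), and 0 had an unadjusted p under 0.05.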
